A study of Macaca mulatta and Mus musculus and Rattus norvegicus with 12 samples.

Results

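The genes described here are the Wnt ligands, their receptors and co-receptors, and the genes by which Wnt signalling is read out and fed back, as measured by RNA-Seq in osteocyte-enriched bone from the calvaria and the tibia of 3 species. Members were found by symbol: every gene whose symbol is WNT or FZD followed by a digit, with LRP4, LRP5, LRP6, ROR1, ROR2, RYK, AXIN2, LEF1, TCF7, NKD1, NKD2, APCDD1, RNF43 and ZNRF3. They numbered 43: 19 ligands, 10 Frizzled receptors, 6 co-receptors or other receptors, and 8 feedback targets and nuclear factors. All 43 were listed among 38599 symbols in the mouse table and 35259 in the rat table, and 36 of them among 28641 in the macaque table.

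The study asked which genes distinguish bone of the skull vault from bone of a loaded limb. In mouse (strain C57BL6, 4 months old) M4 and M8 were made from calvaria and M5 and M7 from tibia, each a pool of 3 animals. In rat (Wistar, 6 months) there was 1 pool of 2 animals for each site, R1 for calvaria and R3 for tibia. In rhesus macaque each library came from 1 animal, with G1, G3 and T1 from calvaria and tibiae represented by G2, G4 and T2; the labels give an age of 4 to 6 months, whereas the study's methods count it in years. The study's methods describe the animals as female, name no treatment of the animals and say that calvaria and tibia came as pairs, although no source names the partners. By the study's methods, mouse and rat tibiae were cut and spun to remove marrow. Their calvariae were cut with scissors clear of sutures and marrow spaces, and macaque bone was sawn. In the rodents the handling of marrow thus differed by site and cannot be told apart from it. All bones were scraped free of periosteum and treated with collagenase before RNA was made from the powdered bone. The libraries hold RNA of every cell that stayed in the bone. In such bulk RNA, fewer cells of a type and less RNA per cell cannot be told apart.

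Wnt proteins are secreted lipid-modified ligands that bind Frizzled receptors at the cell surface. Together with the co-receptors LRP5 or LRP6 they stabilise β-catenin, which enters the nucleus and acts with the transcription factors TCF7 and LEF1. Other ligands, WNT5A and WNT5B among them, mostly act through ROR1, ROR2 or RYK without β-catenin. AXIN2, NKD1, NKD2, APCDD1, RNF43 and ZNRF3 are switched on by the pathway and restrain it at the receptor or in the cytoplasm. In bone the pathway is known for raising bone formation, and osteocytes are the main source of its secreted antagonist sclerostin.

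Reads on genes numbered between 7951585 and 16826535 a library. Markers of other cells moved with site. In macaque the summed level of 4 neutrophil markers was 35570 to 59140 CPM (reads scaled to a common library total) in the calvariae and 7012 to 13861 in the tibiae. That of 2 erythroid markers was 24741 to 36074 against 6746 to 9709. Neutrophil sums were also higher in calvaria in mouse (91796 and 124376 against 56813 and 64674) and rat (82034 against 44195). Erythroid sums were higher in calvaria in rat (99496 against 57826) and overlapped in mouse. Osteocyte markers were higher in tibia in each species, at 7773 and 10503 CPM against 2011 and 1201 in mouse, 7274 against 544 in rat, and 7385 to 16967 against 4953 to 5679 in macaque. In macaque 4 of the 7 osteocyte genes were in the table, MEPE (mean 5084 against 13432 CPM) made up most of the sum and was called higher in tibia, and CAPG was called higher in calvaria. In mouse 4 of 7 osteocyte markers were called higher in tibia, and in rat 4 lay below a log2 ratio of -2 and FGF23 had no read. Chondrocyte markers were also higher in the mouse tibiae, at 497 and 610 CPM against 12.3 and 66.0, as were adipocyte markers, at 1022 and 1319 against 197 and 512 (4 of 5 called). In macaque all 3 adipocyte markers listed were called higher in calvaria (1679 to 2548 CPM against 681 to 1435), as were 4 of 5 heat shock and stress genes (2918 to 3556 against 917 to 1343). In rat the 6 skeletal muscle markers lay below -2, with a sum of 7.16 CPM in calvaria and 669 in tibia. The part of these lists in the differences below was not tested. Of the mouse libraries, M8 stood apart: its log2 CPM correlated with the other 3 at r = 0.960 to 0.962 across genes, whereas M5 and M7 correlated at 0.992. The mouse results are therefore also given without M8 and without M4.

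**Figure D1:**
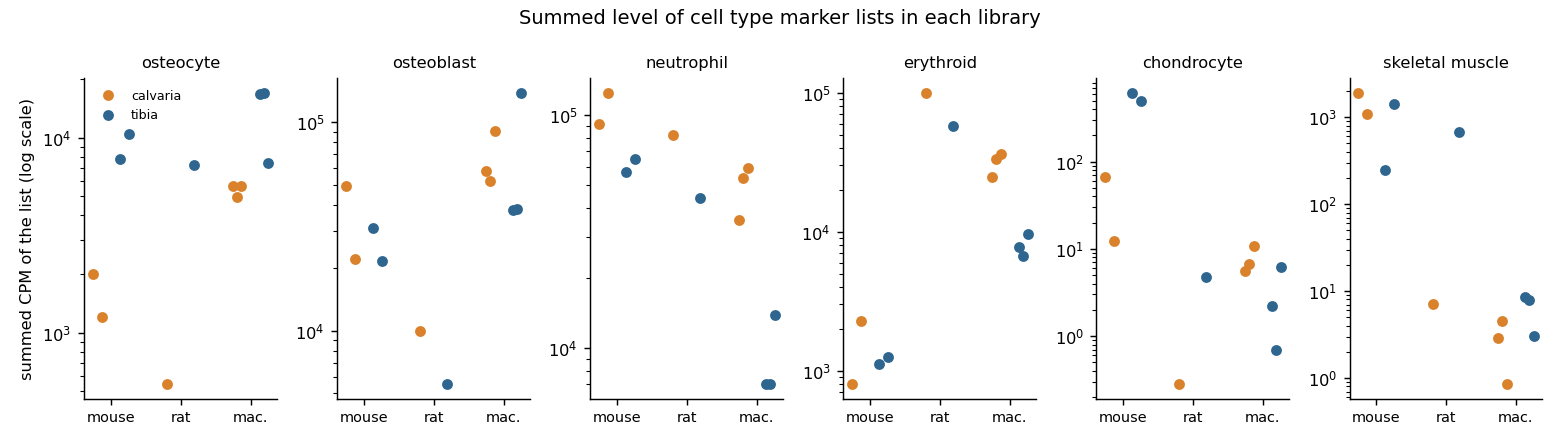
Summed CPM (log scale) of 6 marker lists in each library, orange for calvaria and blue for tibia, with mouse, rat and macaque from left to right in each panel. Neutrophil and erythroid sums of the macaque calvariae (lowest 35570 and 24741) lie above those of the macaque tibiae, and osteocyte sums lie higher in tibia in every species; the macaque lists hold fewer genes, so levels are to be compared within a species.

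Of the 43 members, 39 had a read in some mouse library, 37 in a rat library and 28 in a macaque library, and 27 had a read in every species. WNT7A, WNT8A and WNT8B had none anywhere. A count of 0 in a library allows up to 3 reads. Levels of different genes are compared here as CPM per kilobase of exons, averaged over the site means. WNT5B was the most abundant ligand gene in mouse, at 8.63 in calvaria and 15.7 in tibia, and in rat, at 3.74 and 30.9. In mouse it was followed by WNT4, at 2.46 and 3.01, and WNT10B, at 2.70 and 1.73. In rat WNT5A came next, at 4.65 in tibia, then WNT10B at 0.502 and 4.72.

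In macaque WNT3, which activates the β-catenin branch, led the ligands listed by symbol, at 1.35 and 2.02 CPM per kilobase, followed by WNT5A at 1.19 and 2.06. WNT3 had no read in any mouse or rat library. The macaque table has no row under the symbols WNT5B, WNT10B, WNT9A, FZD5, LRP5, LRP6 and TCF7, which is why only 36 members were found there. It lists rows under LOC numbers that the RefSeq gene table, made for a newer macaque assembly, names as these 7 genes. The row for WNT5B stood at 6.45 and 14.4 CPM per kilobase and that for WNT10B at 2.41 and 12.2, above every ligand listed by symbol. These rows are not members by the symbol rule and are given beside them. Since the macaque libraries differ from the rodent ones in sequencing lane, genome assembly and gene models as well, a difference in level between species cannot be told apart from these.

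**Figure D2:**
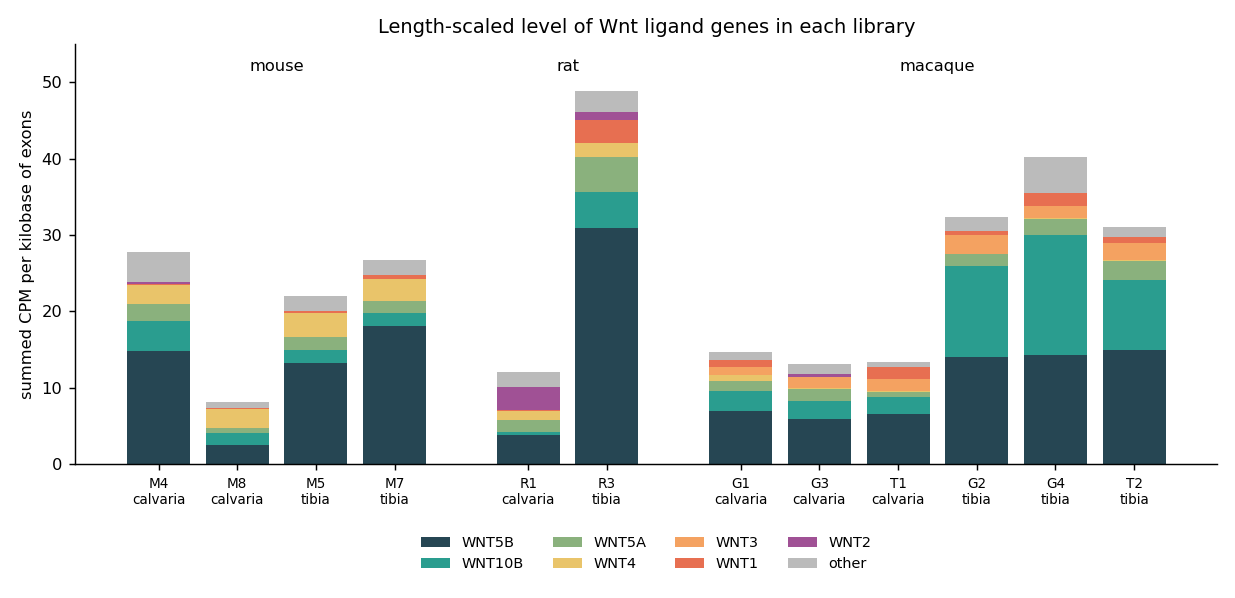
Stacked bars of the length-scaled level (CPM per kilobase of exons) of Wnt ligand genes in each of the 12 libraries, by gene; in macaque, WNT5B and WNT10B are the rows listed under LOC numbers. WNT5B is the largest segment in 11 of 12 libraries, the sum is lower in the mouse calvaria M8 (8.18) than in M4 (27.8), and in macaque the 3 tibiae (31.0 to 40.2) stand above the 3 calvariae (13.1 to 14.7).

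Among the Frizzled receptors, FZD5 and FZD1 led in mouse, FZD1 and FZD4 in rat, and FZD7 and FZD1 in macaque. FZD5 stood at 8.41 CPM per kilobase in mouse calvaria and 8.87 in tibia, and had 4 and 9 reads in rat. FZD7 stood at 5.23 and 12.5 in macaque and at 0.618 and 1.24 in mouse, and had 0 and 4 reads in rat. RYK, an atypical tyrosine-kinase-like Wnt receptor, had the highest length-scaled level of the receptors in mouse (48.5 and 83.7) and rat (28.0 and 88.0). In macaque RYK (27.8 and 46.5) and LRP4 (34.4 and 40.8) were about level. LRP4 binds sclerostin and is known as a receptor of its action in bone.

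A gene counts as called where edgeR's quasi-likelihood test gave an adjusted p (Benjamini-Hochberg, over every gene with a read) under 0.2 and the linear fold change exceeded 1.1. Log2 fold changes set calvaria against tibia, and negative ones mean a higher level in tibia. The p-values measure the spread between these libraries.

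In macaque 8 of the 28 members with a read were called, and all 8 were higher in tibia. They were the receptors FZD7, FZD1, FZD10, FZD4 and RYK, the ligand WNT5A, the transcription factor LEF1 and the feedback inhibitor APCDD1. Over all 18894 genes tested, 9.43% were called higher in tibia and 10.3% higher in calvaria. By role, 4 of 8 Frizzled receptors, 1 of 4 co-receptors, 1 of 10 ligands and 2 of 6 feedback targets were called. The CPM of the sites did not overlap in 8 members, each higher in tibia, against 12.1% of all genes higher in tibia without overlap and 12.8% higher in calvaria. These were not the same 8 as those called. FZD4 and WNT5A were called but overlapped, and WNT6 and RNF43, with at most 10 reads in any macaque library, did not overlap but were not called. Of the 21 members with over 10 reads in some library, 18 had a negative log2 fold change, and the median over the 28 was -0.69, against 0.03 over all genes. Scaled to library size alone, the median over all genes moved to -0.18, the calls split into 1381 for calvaria and 3118 for tibia in place of 1943 and 1781, and the member count rose to 10, each higher in tibia. With the assumed pairs as a block, and with the letter of the library names as a term, 8 members were called.

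In mouse 1 of the 39 members with a read was called, FZD4, higher in tibia. Of 22339 genes tested, 1.57% were called higher in tibia and 0.712% in calvaria. At an unadjusted edgeR p of 0.05, 8 members passed, as did 1810 of all genes tested. The median log2 fold change was -0.08 over the 39 members and 0.05 over all genes. The CPM of the sites did not overlap in 3 members higher in calvaria (ROR2, WNT10A and AXIN2) and in 8 higher in tibia (FZD4, FZD6, FZD7, FZD9, FZD10, RYK, WNT4 and WNT6), against 17.3% and 18.4% of all genes.

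The mouse calvariae differed from each other in these genes more than in most. Of the 34 members with over 10 reads in some mouse library, 30 were higher in M4 than in M8, against 50.7% of the 16559 genes with as many reads. The median log2 ratio of M4 to M8 was 1.09 over the members and 0.01 over all genes. In 13 of the 34 both tibiae lay between a higher M4 and a lower M8, which held for 13.4% of all genes. Osteoblast markers summed to 49412 CPM in M4 and 22130 in M8, and neutrophil markers to 91796 and 124376. What this had to do with the members was not tested.

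Without M4, 19 of 38 members were called, all higher in tibia, at a background of 18.2% of genes higher in tibia and 16.2% higher in calvaria. Without M8, 15 of 37 were called, 9 higher in calvaria and 6 in tibia, at a background of 8.91% and 8.65%. These fits leave 1 calvaria, which is assumed to vary as the tibiae do. FZD4, FZD6, FZD7, FZD9, FZD10 and RYK were called higher in tibia whichever calvaria was left out. Both fits share the tibiae. Of 21082 genes tested in both, 5.01% were called higher in tibia in both, 2.27% higher in calvaria in both, and 667 genes in opposite directions. FZD1, FZD2 and FZD5 were among the last.

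**Figure D3:**
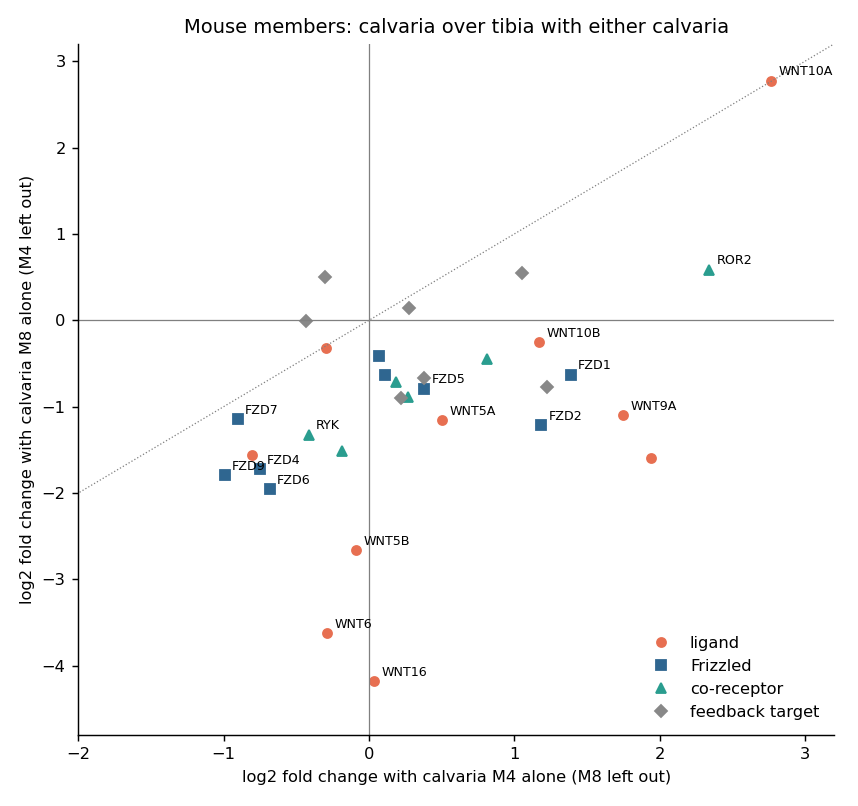
Log2 fold change (calvaria over tibia) of mouse members with over 10 reads, from the fit with calvaria M4 alone (x axis) and with calvaria M8 alone (y axis), with the line of equality dotted; members without a read in a calvaria are not drawn. Most points lie under the line, FZD4, FZD6, FZD7, FZD9 and RYK are negative on both axes, and FZD1 (1.39 and -0.63), FZD2 (1.19 and -1.21) and FZD5 (0.38 and -0.79) change sign.

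In rat, with 1 library a site and hence no test, 11 of 37 members with a read had a log2 ratio (1 read added) below -2: the ligands WNT1, WNT5B, WNT9A, WNT10B and WNT16, the receptors FZD6, FZD7, FZD9 and FZD10, and AXIN2 and RNF43. None was above 2. Over the 19234 rat genes with a read, 8.14% were below -2 and 1.55% above 2. The median was -1.17 over these members and -0.29 over all genes, so ratios are to be read against that shift. With TMM factors the medians were -0.88 and -0.00471, and 9 members lay below -2. The share of all genes below -2 with TMM factors is not given here.

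Of the ligands, WNT5B, whose mouse gene lies at chr6:119432531-119544347 (GRCm38, minus strand), had 114 reads in rat calvaria and 807 in rat tibia, an 8.25-fold higher CPM in tibia (95% exact interval 6.77 to 10.1, counting error only). The macaque row for WNT5B had 107, 86 and 99 reads in G1, G3 and T1 and 236, 231 and 284 in G2, G4 and T2. The macaque sites did not overlap, and the row was called at a log2 fold change of -1.16 (SE 0.25, edgeR adjusted p 0.0014). In mouse WNT5B stood at 49.7 CPM in M4 and 8.46 in M8 against 44.8 and 60.8 in the tibiae, so M4 overlapped the tibiae and M8 did not. The mouse log2 fold change was -0.86 (SE 0.53, edgeR adjusted p 0.81), -0.09 without M8 and -2.66 without M4.

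WNT10B, known to drive osteoblast formation, had 16 reads in rat calvaria and 129 in rat tibia, a 9.395-fold higher CPM in tibia (interval 5.57 to 16.9). The macaque row for WNT10B had 52, 46 and 47 reads in the calvariae and 267, 338 and 231 in the tibiae. The sites did not overlap. Its log2 fold change was -2.34 (SE 0.28), which stayed between -2.55 and -2.12 in 18 alternatives. In mouse the direction was the other way: 9.28 and 3.51 CPM in the calvariae and 3.96 and 4.24 in the tibiae, with M4 above and M8 below both tibiae. The mouse log2 fold change was 0.64 (SE 0.49, edgeR adjusted p 0.87). It changed to -0.25 without M4, and was 1.17 and called higher in calvaria without M8 (adjusted p 0.0072).

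WNT1, the ligand whose loss of function causes inherited brittle bone, had 3 reads in rat calvaria and 88 in rat tibia, a 34.2-fold higher CPM in tibia (interval 11.3 to 169). In mouse it had 10 and 5 reads against 10 and 25, and in macaque 16, 0 and 25 against 11, 30 and 18, so the sites overlapped in both. The mouse genes of WNT1 and WNT10B are neighbours on chromosome 15, 11.7 kb apart (WNT10B at chr15:98770712-98778150, WNT1 at chr15:98789857-98793837, GRCm38). Both had a rat log2 ratio below -3, at -3.16 for WNT10B and -4.70 for WNT1. WNT6 and WNT10A, 6.19 kb apart on mouse chromosome 1, had in rat 6 and 5 reads (WNT6) and 47 and 10 reads (WNT10A) in calvaria and tibia. The pairs WNT3A with WNT9A and WNT3 with WNT9B each hold a gene with at most 1 read in any mouse or rat library.

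WNT5A, the ligand of ROR2 and RYK, had 68, 76 and 31 reads in the macaque calvariae and 87, 113 and 153 in the tibiae. Calvaria G3, at 9.53 CPM, lay just above tibia G2, at 9.51, so the sites touched. It was called at a log2 fold change of -0.79 (SE 0.35, edgeR adjusted p 0.16), but not within the libraries lettered G, where the value was -0.32, and it was not called without G4, T1 or T2, by the exact test (adjusted p 0.24) or with length offsets (0.37). In rat it had 107 reads against 284. In mouse the calvariae stood at 15.7 and 5.03 CPM, on either side of the tibiae, which had 202 and 155 reads.

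WNT10A and WNT2 were higher in the rat calvaria by a log2 ratio over 1. With TMM factors the rat ratio of WNT10A was 2.19, past the threshold of 2. WNT10A had 47 reads in rat calvaria and 10 in rat tibia (log2 ratio 1.90), 14 and 12 against 2 and 2 in the mouse libraries (log2 fold change 2.78, SE 1.25, edgeR adjusted p 0.58), and 5, 2 and 3 against 11, 10 and 1 in macaque. The mouse sites did not overlap, and the mouse value was 2.77 with either calvaria left out, but in neither fit was it called. WNT2 had 93 reads in rat calvaria against 28 (log2 ratio 1.48), and 8 reads in macaque G3 with none in the other 5 macaque libraries. WNT4, a ligand of both branches, stood at 9.41 and 9.37 CPM in the calvariae and 12.3 and 10.7 in the tibiae of mouse, without overlap (log2 fold change -0.29, SE 0.33, edgeR adjusted p 0.87). In macaque it had 14, 3 and 2 reads against 2, 1 and 5 (log2 fold change 1.43, SE 1.25, edgeR adjusted p 0.55), and in rat 21 against 26. WNT16, a ligand known to protect cortical bone, had 1 and 22 reads in rat, 24, 1, 24 and 24 in M4, M8, M5 and M7, and 2, 8 and 3 against 19, 19 and 9 in macaque, where calvaria G3 overlapped tibia T2 and the log2 fold change was -1.65 (SE 0.85, edgeR adjusted p 0.26). The other ligands had at most 111 reads in any library, that being WNT9A in M4.

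**Figure D4:**
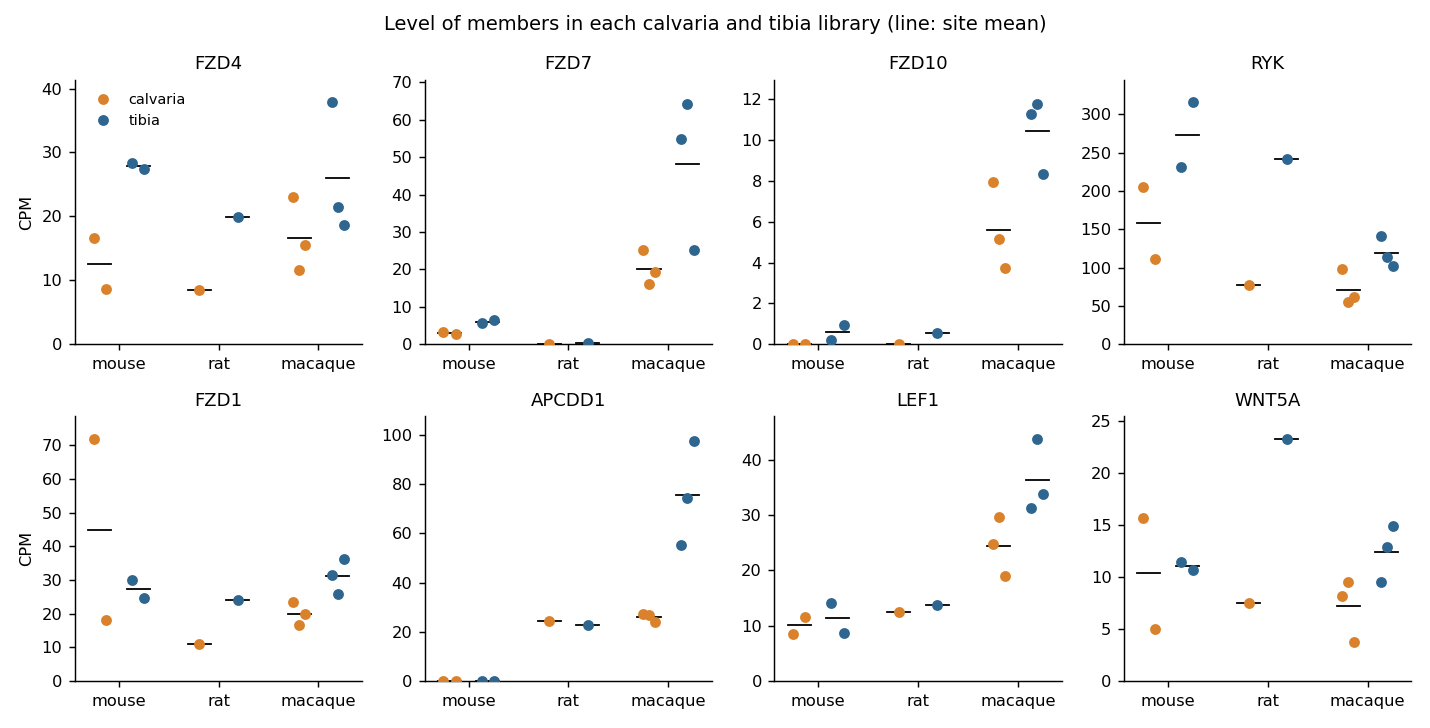
CPM of the 8 members called in mouse or macaque, as 1 point per library (orange calvaria, blue tibia) with a line at the site mean, for mouse, rat and macaque from left to right. In FZD7, FZD10 and RYK every tibia point lies above every calvaria point of the same species, APCDD1 is at or near 0 in mouse and reaches 97.6 CPM in a macaque tibia, and FZD1 of the mouse calvaria M4 (71.9 CPM) stands above all other FZD1 points.

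The Frizzled receptors gave the largest share of called members in macaque. FZD7, a receptor found on many progenitor cells (mouse gene at chr1:59482424-59486955, plus strand), had 208, 128 and 160 reads in the macaque calvariae and 502, 562 and 260 in the tibiae. In CPM these were 25.1, 16.1 and 19.4 against 54.9, 64.2 and 25.2, and the lowest tibia, T2, was just above the highest calvaria, G1. The log2 fold change was -1.25 (SE 0.26, edgeR adjusted p 7e-04), and it was called in each of 19 alternatives, between -1.55 and -0.98. Between T1 and T2 the log2 ratio was -0.38, and within letter G it was -1.52. In mouse FZD7 had 50 and 36 reads against 99 and 93, without overlap, a 2.01-fold higher level in tibia (SE of the log2 fold change 0.45, edgeR adjusted p 0.57).

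FZD10 (mouse gene at chr5:128600844-128604093, plus strand) had 66, 41 and 31 reads in the macaque calvariae and 103, 103 and 86 in the tibiae, without overlap (log2 fold change -0.89, SE 0.36, edgeR adjusted p 0.12). It was not called without G2, G3, G4 or T1. In mouse it had no read in either calvaria and 4 and 14 in the tibiae, 2.81-fold higher in tibia with the calvariae set at 3 reads a library. In rat it had 0 and 7 reads, 2.72-fold higher in tibia by the same floor. Neither value allows for the counting error of the few tibia reads, so neither is a lower bound.

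FZD4, the receptor of norrin as well as of Wnt proteins (mouse gene at chr7:89404355-89413134, plus strand), was the member called in mouse, with 260 and 113 reads in the calvariae and 503 and 400 in the tibiae. In CPM these were 16.6 and 8.61 against 28.4 and 27.4, without overlap. The log2 fold change was -1.14 (SE 0.34, edgeR adjusted p 0.195), close to the threshold. The adjusted p was 0.29 with the assumed pairs as a block and 0.24 with the other possible pairs, 1.0 without either tibia, and 0.22 to 0.62 in 7 other settings of scaling, tool or filter. It was -1.72 without M4 and -0.75 without M8, and called in both. In macaque FZD4 had 191, 92 and 128 reads against 347, 188 and 192. Calvaria G1, at 23.0 CPM, lay above tibiae G4 and T2, at 21.5 and 18.6, so the sites overlapped. The macaque log2 fold change was -0.64 (SE 0.28, edgeR adjusted p 0.16), with an adjusted p between 0.012 and 0.75 over the alternatives, and it was not called without G2, G3 or T1, nor in 6 settings of tool, filter or length offset (0.20 to 0.44). In rat it had 121 and 244 reads, a 2.35-fold higher CPM in tibia (interval 1.88 to 2.95).

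FZD1 (mouse gene at chr5:4753839-4758035, minus strand) had 195, 132 and 165 reads in the macaque calvariae and 287, 226 and 373 in the tibiae, without overlap (log2 fold change -0.64, SE 0.24, edgeR adjusted p 0.084). It was not called without G2 or G3, within letter G, or with length offsets (adjusted p 0.23). In rat it had 158 and 293 reads. In mouse it had 1123 and 236 reads in M4 and M8 and 531 and 360 in M5 and M7, so that both tibiae lay between the calvariae (log2 fold change 0.72, SE 0.45, edgeR adjusted p 0.82).

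FZD6 and FZD9 were higher in both mouse tibiae than in either calvaria, at 8.59 and 10.1 CPM against 5.82 and 2.44 for FZD6 (log2 fold change -1.17, SE 0.45, edgeR adjusted p 0.45) and at 5.03 and 5.40 against 2.62 and 1.52 for FZD9 (-1.32, SE 0.50, edgeR adjusted p 0.43). In rat FZD6 had 32 and 173 reads and FZD9 had 1 and 12. In macaque FZD6 stood at 12.9 to 19.7 CPM in the calvariae and 16.8 to 19.2 in the tibiae, with overlap, and FZD9 had at most 7 reads. FZD5 was the most abundant Frizzled gene in mouse and stood at 80.2 and 36.1 CPM in the calvariae against 69.2 and 53.4 in the tibiae. In the mouse annotation 17.8% of its exonic bases lie under exons of the opposite-strand gene Gm38058, and the counting took no account of strand. FZD8 had 61 and 81 reads in rat and 104 to 214 in mouse, where the sites overlapped.

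**Figure D5:**
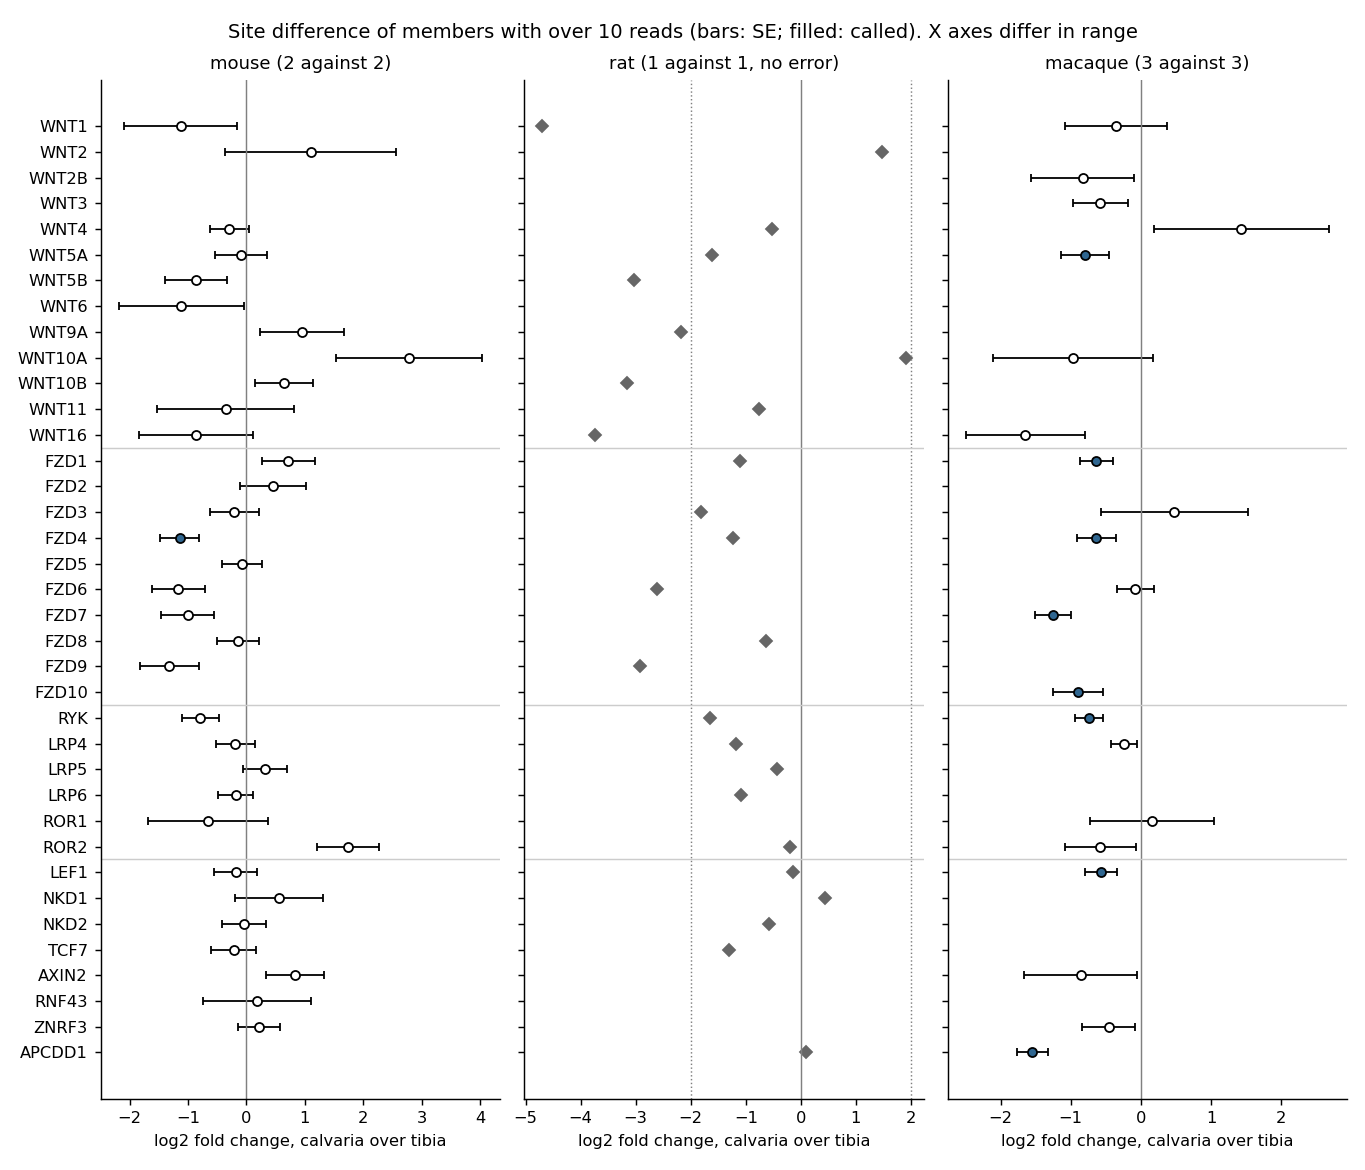
Log2 fold change, calvaria over tibia, of members with over 10 reads in some library of the species, in 3 panels (mouse, rat, macaque) whose x axes differ in range; bars are standard errors, filled points are called, rat diamonds have no error and dotted lines mark the rat threshold of 2. Members without a read in a site are not drawn. In macaque 18 of 21 members with over 10 reads lie left of 0, and the 8 filled points all do.

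RYK (mouse gene at chr9:102834917-102908305, plus strand) was higher in every tibia than in any calvaria of the same species. It had 812, 436 and 508 reads in the macaque calvariae and 1297, 996 and 1056 in the tibiae. The macaque log2 fold change was -0.74 (SE 0.20, edgeR adjusted p 0.013), called in 18 of 19 alternatives and not without G3, where the adjusted p was 0.23. The value was -0.73 both within letter G and between T1 and T2. In mouse it had 3215 and 1460 reads against 4088 and 4617 (log2 fold change -0.79, SE 0.31, edgeR adjusted p 0.47), and in rat 1101 against 2966, a 3.14-fold higher CPM in tibia (interval 2.93 to 3.37).

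LRP6, the co-receptor of the β-catenin branch, was listed in macaque under a LOC number, with 337, 248 and 246 reads in the calvariae and 570, 573 and 509 in the tibiae, without overlap. That row was called at a log2 fold change of -0.80 (SE 0.21, edgeR adjusted p 0.0075). In rat LRP6 had 360 and 655 reads, and in mouse 1241 and 565 against 1271 and 983, with overlap (log2 fold change -0.18, SE 0.30, edgeR adjusted p 0.87). LRP5 had 442 and 157 reads in the mouse calvariae and 252 and 262 in the tibiae, 134 and 155 in rat, and 0 to 2 in the macaque LOC row. LRP4 had 1106 and 2139 reads in rat, a 2.25-fold higher CPM in tibia (interval 2.09 to 2.43), and was not called in macaque, at 242 to 359 CPM in the calvariae and 329 to 356 in the tibiae (log2 fold change -0.25, SE 0.18, edgeR adjusted p 0.48). ROR2, the receptor of WNT5A, was the member nearest to a call for calvaria in mouse, at 15.3 and 4.57 CPM against 3.62 and 2.33 (log2 fold change 1.74, SE 0.54, edgeR adjusted p 0.23). It was 2.34 without M8, where it was called, and 0.58 without M4, where it was not. In rat ROR2 had 55 and 54 reads, and in macaque 17 to 22 in the calvariae and 20 to 61 in the tibiae. ROR1 had at most 23 reads in any library.

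APCDD1, a feedback inhibitor in the membrane that binds Wnt and LRP proteins, had the smallest adjusted p of the macaque feedback genes. It had 224, 213 and 199 reads in the macaque calvariae and 507, 650 and 1005 in the tibiae, at 24.1 to 27.0 CPM against 55.4 to 97.6. The log2 fold change was -1.55 (SE 0.22), and it was called in each of 19 alternatives, between -1.73 and -1.26, with an adjusted p of at most 0.0074. In rat it had 345 and 278 reads, a CPM ratio of tibia to calvaria of 0.939 (interval 0.799 to 1.103). In mouse it had 0, 1, 0 and 0 reads, too few for any comparison of site.

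In the mouse annotation 13.8% of the 8788 exonic bases of LEF1 (chr3:131110471-131224356, plus strand) lie under opposite-strand exons of Gm43352. The mouse counts rest on a gene model of 4828 bases, whose share under Gm43352 is not known. LEF1 had 206, 236 and 156 reads in the macaque calvariae and 286, 384 and 348 in the tibiae. The sites did not overlap, at 18.9 to 29.6 CPM against 31.3 to 43.8 (log2 fold change -0.57, SE 0.23, edgeR adjusted p 0.12), and it was not called without G1, G4 or T1, within letter G, or with length offsets (adjusted p 0.21). In rat it had 178 and 168 reads, and in mouse 134 and 153 against 251 and 128, with overlap. TCF7, its relative, had 231 and 493 reads in rat, a 2.49-fold higher CPM in tibia (interval 2.12 to 2.92), 308 and 121 against 367 and 187 in mouse, and at most 24 in the macaque LOC row.

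AXIN2, a scaffold of the β-catenin destruction complex and a common reporter of the pathway, had 80 and 48 reads in the mouse calvariae and 41 and 38 in the tibiae, without overlap (log2 fold change 0.84, SE 0.50, edgeR adjusted p 0.79), 1 and 6 in rat, and 3 to 30 in macaque. The rat ratio of AXIN2, like that of RNF43 with the same reads, passed the threshold on 7 reads, and its interval ran from 0.848 to 322. ZNRF3, which like RNF43 removes Frizzled receptors from the cell surface, had 187 and 146 reads in the mouse calvariae against 133 and 180, and stood at 4.14 to 6.79 against 5.34 to 9.70 CPM in macaque; the sites overlapped in both. NKD2 had 308 and 397 reads in rat and 94 to 228 in mouse, and none in macaque. No feedback gene was called in mouse, where edgeR gave 0 of 8 at an unadjusted p of 0.05 as well as after adjustment.

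Set side by side over the species, 13 members had over 10 reads in some library of each. In 8 of them (FZD4, FZD6, LEF1, LRP4, RYK, WNT1, WNT5A and WNT16) the value was negative, that is higher in tibia, in all 3 species, and in none was it positive in all 3. Over the 5917 genes with as many reads, 24.4% were negative and 16.0% positive in all 3. Without M8 the mouse values of LRP4 (0.27), WNT5A (0.50) and WNT16 (0.03) were positive, so for these 3 the shared direction rests on that library. The rat ratio of LEF1 was 0.15 with TMM factors. FZD4 and RYK kept the sign in every alternative of all 3 species, and each of the other 6 changed it in at least 1.

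Whether the site difference itself differed between mouse and macaque was tested as an interaction over their 10 libraries. Of 8196 genes with a read in both species 5.65% were called. In 308 of these 463 the log2 fold change was the more positive in macaque, or in 388 of 504 when scaled to library size alone. Of 27 members 1 was called, FZD10, at 4.81 (SE 1.58, edgeR adjusted p 0.199). That value rests on the mouse calvariae without a read and is no bound. ROR2 (-2.30, SE 0.85, edgeR adjusted p 0.24), WNT10A (-3.72, SE 1.51, adjusted p 0.29) and FZD1 (-1.34, SE 0.61, adjusted p 0.35) had the next smallest p-values and were not called. For RYK the difference between the species was 0.05 (SE 0.42) and for FZD7 -0.24 (SE 0.53).

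Of 62 other genes of the pathway, 59 had a read in mouse, 55 in rat and 41 of 45 listed in macaque. In mouse 8 were called higher in tibia and 1 in calvaria, in macaque 15 and 1, and in rat 8 lay below -2 and none above 2, beside 1.57%, 9.43% and 8.14% of all genes called or past the threshold toward tibia. Of the secreted antagonists with a read, 4 of 13 were called higher in tibia in mouse and 5 of 8 in macaque. In rat 1 of 9 lay below -2, and DKK1 had no read in the counts used here. The study itself reports DKK1 as higher in the rat tibia. The cause of that difference was not tested. SOST, which encodes sclerostin, was called in mouse (-2.84, SE 0.32) and was not analysed here in macaque. The study reports SOST as higher in tibia in macaque. DKK1, which blocks LRP5 and LRP6, was called in both, at -1.55 (SE 0.31) in mouse and -1.13 (SE 0.21) in macaque, and FRZB, a decoy for Wnt proteins, at -4.76 (SE 0.40) and -1.26 (SE 0.24). SFRP2, another decoy, was the 1 call for calvaria in mouse (3.60, SE 0.84). Of the R-spondins, which amplify the signal, and their LGR receptors, RSPO3 (-1.31, SE 0.37) and LGR6 were called higher in tibia in mouse. WLS, which carries Wnt proteins to the cell surface, was called in macaque (-0.64, SE 0.22). Among nuclear partners 4 of 9 were called higher in tibia in macaque, TCF7L1, TCF7L2, BCL9 and TLE1, and in mouse TCF7L2 alone (-1.06, SE 0.27). Of the planar polarity and calcium branches, PRICKLE2 (-1.84, SE 0.25) and VANGL2 (-0.94, SE 0.27) were called in macaque.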

How the data were processed

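RNA-Seq of 12 bone libraries was analysed. The authors enriched poly(A)+ RNA, mapped the reads (HISAT2 in the study's methods, BWA 0.7.10-r789 in the submitters' processing notes) and counted them on merged exons with HTSeq without strand. As deposited, the tables give raw counts of reads per gene and a normalized signal that the authors made with edgeR 3.16.5; it equals the count times 1 constant per library in 100% of values and was not used. Rows naming no gene held between 0.00261% and 0.0663% of reads and were left out. Rows that share a symbol, in capitals, were summed.

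Mouse and macaque were fitted separately over all symbols with a read with edgeR 4.0.16 in R 4.3.3 (TMM, quasi-likelihood, Benjamini-Hochberg). CPM use TMM library sizes in mouse and macaque (factors 0.884 to 1.12) and plain totals in rat; common biological coefficients of variation were 0.348 and 0.295. The interaction pooled both species. In rat 1 read was added and a log2 ratio past 2 counted. Standard errors are the fold change over the square root of F. Intervals are exact binomial at 95%, and like the floor of 3 reads per library they cover counting error only.

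By the naming rule, values in every library are given for members called in mouse or macaque and for those whose sites do not overlap in both, in the same direction as rat; the 3 ligands, 3 Frizzled receptors, co-receptors and feedback targets of highest length-scaled level in each species are named too. Other members were named after their values were seen. The members and lists were chosen with earlier results of these data known. The methods say that sites were paired within animals; partners were assumed from adjoining library names: macaque deviations from site means correlated at 0.203, 0.282 and 0.446 within assumed pairs and -0.351 to 0.0898 otherwise across 12305 genes. Steps were tested on simulated data. Alternatives, listed further on, include DESeq2 1.42.0. Mouse coordinates are GENCODE vM21; no sequence is printed. Tables were handled with Python 3.11.15 (pandas 2.3.3, scipy 1.17.1, numpy 2.4.6).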

Additional observations from a re-analysis of the deposited data

Results flagged for a closer look

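The FZD10 difference between calvaria and tibia differed between mouse and macaque in the test of the interaction, by 4.81 on the log2 scale (macaque minus mouse, edgeR adjusted p 0.199). FZD10 had no read in either mouse calvaria, and it was higher in tibia in both species. The call was lost with RLE factors (adjusted p 0.204) and without each of the 4 mouse libraries or G1, G2, G3, G4 or T1, where the adjusted p lay between 0.236 and 0.518.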

How the results depend on the processing

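Fold changes given for 23 mouse members were recomputed in 336 alternative values, of which 287 kept direction and side of the threshold, 12 no longer passed it, 23 newly passed it and 14 reversed. Of 317 values for 17 macaque members, 271 kept both, 34 no longer passed, 6 newly passed and 6 reversed, and the 54 values of the macaque LOC rows called kept both. Of 66 rat values, 57 stayed within their counting interval, 7 left it, all with TMM factors, and 2 reversed. Leaving out a library moved the mouse values of FZD1 between -0.63 and 1.39, FZD2 -1.21 and 1.19, FZD5 -0.79 and 0.38, FZD8 -0.42 and 0.13, LEF1 -0.49 and 0.21, LRP4 -0.89 and 0.27, LRP6 -0.72 and 0.19, TCF7 -0.89 and 0.22, WNT10B -0.25 and 1.17, WNT16 -4.18 and 0.034, and WNT5A -1.16 and 0.50, and the macaque values of AXIN2 between -1.95 and 0.12, FZD6 -0.20 and 0.081, and WNT1 -1.12 and 0.23. Length offsets turned macaque FZD6 to 0.039 and LRP4 to 0.0011, and TMM factors turned rat LEF1 to 0.15 and ROR2 to 0.093. The member count in mouse (1) was 0 with RLE factors, library size alone, DESeq2, the exact test, shared symbols, a read in every library, filterByExpr, a false discovery rate under 0.05 and either replicate block, 2 with length offsets, and 0 to 19 leaving out a library. Genes called in mouse (510) numbered 20 among shared symbols, 14 with a read in every library, 29 after filterByExpr, 208 at 0.05, 295 with the replicate block for assumed pairs, and 220 to 7470 leaving out a library. In macaque 3 members were called at 0.05, 4 with length offsets, 8 with the replicate block and 4 to 8 leaving out a library, and genes called (3724) numbered 2136 among shared symbols, 1978 at 0.05 and 2301 to 4998 leaving out a library. The interaction gave 0 members with RLE factors and 0 to 2 leaving out a library. In rat 5 members passed with 5 reads added and 23 at a log2 ratio past 1 in either direction, against 11. Of the 23, WNT10A (1.90) and WNT2 (1.48) were higher in calvaria and the others in tibia. The share of all rat genes at these settings is not given here, and their median log2 ratio with 1 read added was itself -0.29. The cause of these changes was not tested. With the replicate block, mouse genes called higher in calvaria fell from 159 to 62 (99 with the other pairs). Members at an unadjusted edgeR p of 0.05 fell from 8 to 5 (6), and all genes at that p from 1810 to 1366 (1432).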
